A study of Mus musculus with 6 samples.

Results

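Imprinted genes, including *Peg3*, were examined in the cerebral cortex of SAMR1 and SAMP8 mice. Of 38 imprinted genes listed by symbol, 36 had at least 1 probe set on the array, out of 22527 gene symbols measured. These 36 genes were represented by 103 of the 45077 probe sets; 13 genes had a single probe set and 23 had several. *Dio3* and *Rtl1* had none under their symbols and were not analysed here. The members were listed for what is known of their imprinting, with earlier results of these data already known.

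SAMP8 is a senescence-accelerated mouse strain with early learning and memory deficits, and SAMR1 is its normally aging control strain. Male mice, 16 weeks old at the start of the study, formed 3 groups of 2 arrays each. The SAMR1 + Water group (SAMR1) and the SAMP8 + Water group (SAMP8 control) received water by mouth, and the SAMP8 + STEE group (STEE-fed SAMP8) received an ethanolic extract of sugarcane top (STEE) at 20 mg/kg. Administration lasted 30 days and went on through 8 days of behavioral testing, so that the cortex came from mice older than 16 weeks. The animals of all 3 groups drank BrdU, a label of dividing cells. Cortical RNA was hybridized to Affymetrix expression arrays for the mouse (PM array strips). The values below are the authors' group means on the log2 scale, one for each probe set and group. No value per mouse was used, so that no spread between mice, no error and no test can be given. With 2 arrays behind each mean, its precision is low.

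Genomic imprinting silences one parental copy of a gene. The silent copy is marked by DNA methylation set in the egg or the sperm, and a methylated control region usually acts on a cluster of genes, often through a long noncoding RNA. Many imprinted genes are strongly expressed in brain, where they bear on neuronal survival, maternal care, feeding and growth. Arrays of this kind measure the sum over both alleles and cannot show which parental copy was read.

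For each gene the brightest probe set gave the main value, and a difference of at least 0.25 on the log2 scale (1.19-fold) was counted as higher or lower. In the SAMP8 control compared with SAMR1, 8 of 36 imprinted genes (22.2%) were lower by this measure, against 3.84% of all genes. They were *Usp29*, *Magel2*, *Igf2*, *Cdkn1c*, *Dlk1*, *Meg3*, *Rian* and *Nnat*. Only *Mest* was higher (2.78% of the members, against 4.25% of all genes). The median strain difference was -0.055 for the imprinted genes and 0.0 for all genes, and 23 imprinted genes lay below 0, 12 above and 1 at 0. Since the members are few and several share a domain, these shares describe the list and carry no test.

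**Figure D1:**
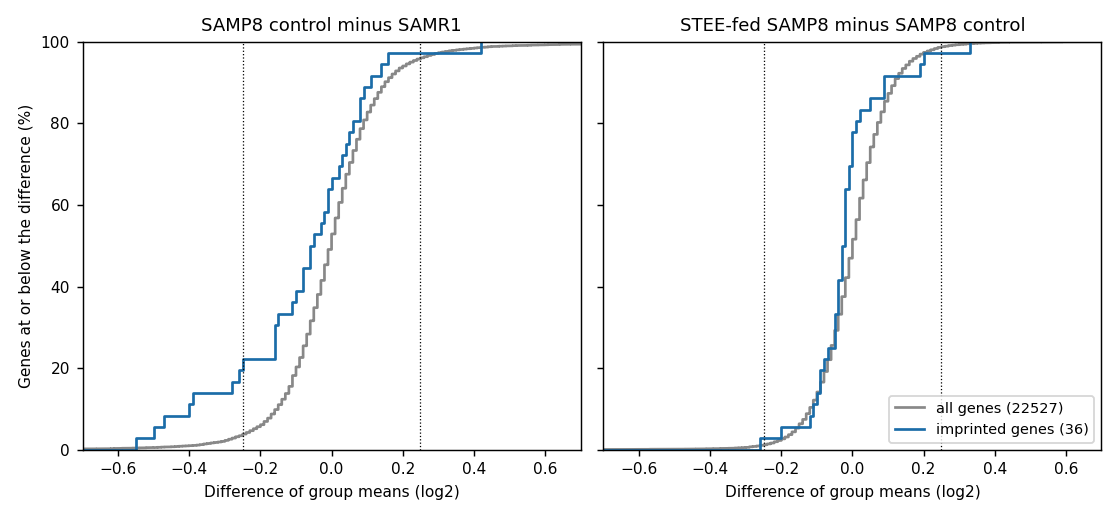
Cumulative share of genes (vertical axis, percent) at or below each log2 difference of group means (horizontal axis), for 36 imprinted genes and all 22527 genes at their brightest probe set; dotted lines mark 0.25 in either direction. On the left, 22.2% of imprinted genes and 3.84% of all genes reached -0.25 or lower in the SAMP8 control compared with SAMR1, while on the right the members stayed between -0.26 and 0.33 with STEE.

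*Peg3* encodes a zinc-finger transcription factor made from the paternal allele and is known for its part in maternal behavior and in cell survival. Its promoter faces that of *Usp29*, and the promoter windows of both genes in RefSeq (GRCm38.p6, 250 bases before to 50 after the start) overlap by 263 bases. The *Peg3* window, chr7:6730370-6730669 on the minus strand, is printed 5′ to 3′ to show the CpG sites that DNA methylation can mark, in capitals.
Peg3: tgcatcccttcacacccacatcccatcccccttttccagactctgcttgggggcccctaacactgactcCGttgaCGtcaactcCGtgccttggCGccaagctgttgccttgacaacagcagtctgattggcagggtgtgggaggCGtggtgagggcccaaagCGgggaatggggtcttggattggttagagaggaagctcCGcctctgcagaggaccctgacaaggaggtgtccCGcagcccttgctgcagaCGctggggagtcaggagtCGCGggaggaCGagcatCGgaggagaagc
It held 13 CpG sites, and the *Usp29* window held 17, against a median of 7 over 32851 windows of that length. Neither count was unusual, since 63.7% of all windows held at most 13 and 70.3% at most 17. Methylation was not measured in these mice.

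The 5 probe sets of *Peg3* did not give one picture of the gene. The brightest, 1433924_PM_at, read 10.49 in SAMR1, 10.48 in the SAMP8 control and 10.38 in STEE-fed SAMP8. The probe set 1417355_PM_at read 10.15, 7.39 and 7.26 in the same order. Thus the first put *Peg3* at nearly the same level in both strains, whereas the second put it 6.77-fold lower in the SAMP8 control, a log2 difference of -2.76. Among all 45077 probe sets this was the lowest strain difference (rank 1). The probe set 1417356_PM_at went slightly the other way, with 7.64 in SAMR1, 7.80 in the SAMP8 control and 7.79 in STEE-fed SAMP8. The 2 remaining probe sets, 1447731_PM_at and 1447732_PM_x_at, read between 2.39 and 2.48 in all groups and differed by 0.06 and -0.07 between strains.

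The strain difference therefore ranged over 2.92 log2 units between probe sets of *Peg3*. The median range was 0.14 over 10574 genes with several probe sets, in which *Peg3* took rank 3. Of 4228 genes with at least 2 probe sets of mean signal 5 or more, only 2, *Peg3* among them, had a range this large, and 43 had a range of at least 1. With STEE the probe sets of *Peg3* lay close together, between -0.13 and 0.00, and 4 of 5 were below 0. Compared with SAMR1, STEE-fed SAMP8 differed by -0.11 at the brightest probe set and by -2.89 (7.41-fold) at 1417355_PM_at. Which part of the transcript each probe set reads, and whether its probes match both strains equally, was not given in the sources used here.

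**Figure D2:**
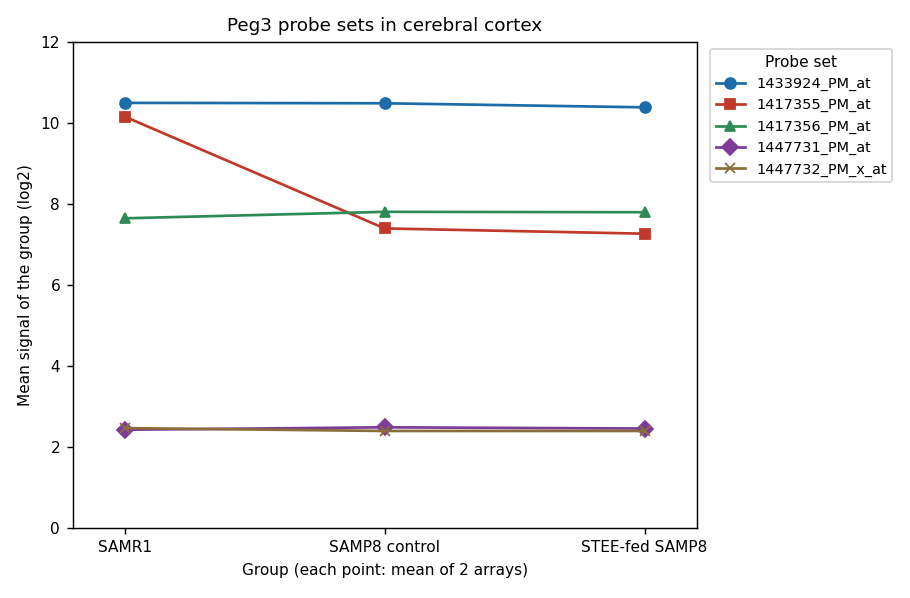
Mean log2 signal (vertical axis) of the 5 *Peg3* probe sets in SAMR1, SAMP8 control and STEE-fed SAMP8 (horizontal axis), each point the authors' mean of 2 arrays. One line is at 10.15 in SAMR1 and 7.39 in the SAMP8 control, while the brightest is at 10.49 and 10.48 and no line differs by more than 0.13 with STEE.

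*Usp29*, the ubiquitin-specific peptidase read from the same promoter region, was lower in SAMP8. It read 6.20 in SAMR1 and 5.70 in both SAMP8 groups, a strain difference of -0.50. Its dimmer probe set read 3.88, 3.76 and 3.58, in the same direction. *Zim1*, a maternally expressed zinc-finger gene of the domain, was dim in all groups, at 2.96, 2.91 and 2.89. The nearest 5 measured genes on each side of the domain were added after the values were seen. Their strain differences ran from -0.15 to 0.31; 2 of 10 were higher, *Zfp583* by 0.31 and *Zfp954* by 0.27, and 0 were lower.

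In the *Dlk1*-*Dio3* domain, probe sets of 3 genes were lower in SAMP8 throughout. The paternal copy expresses *Dlk1*, which encodes a transmembrane protein with EGF-like repeats that restrains cell differentiation. The maternal copy expresses the noncoding RNAs *Meg3*, *Rian* and *Mirg*; *Rian* carries small nucleolar RNAs and *Mirg* carries microRNAs. Of the 4 genes measured, 3 were lower in the SAMP8 control, with a domain median of -0.33. The RefSeq promoter windows of *Dlk1* (chr12:109452573-109452872) and *Meg3* (chr12:109540746-109541045, the first of 2), both on the plus strand of GRCm38.p6, are shown because these genes head the paternal and the maternal transcripts of the domain, again with CpG in capitals.
Dlk1: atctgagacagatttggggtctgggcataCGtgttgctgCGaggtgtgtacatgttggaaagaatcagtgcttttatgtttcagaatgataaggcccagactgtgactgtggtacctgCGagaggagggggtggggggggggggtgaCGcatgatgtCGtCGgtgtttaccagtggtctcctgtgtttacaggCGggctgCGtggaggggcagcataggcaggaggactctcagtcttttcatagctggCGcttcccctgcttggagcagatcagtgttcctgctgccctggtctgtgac
Meg3: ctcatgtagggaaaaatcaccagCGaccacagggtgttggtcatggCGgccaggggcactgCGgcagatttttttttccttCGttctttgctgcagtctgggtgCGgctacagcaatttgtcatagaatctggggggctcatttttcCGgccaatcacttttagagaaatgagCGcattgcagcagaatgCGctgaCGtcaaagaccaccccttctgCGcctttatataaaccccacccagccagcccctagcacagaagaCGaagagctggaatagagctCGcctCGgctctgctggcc
The *Dlk1* window held 9 CpG sites and the *Meg3* window 13, and the latter also held the letters TGCCGC on one of its strands once. TGCCGC is the core of the motif bound by ZFP57, a protein that protects imprints. It was found on either strand in 10 of 45 windows of the members (22.2%), belonging to 9 genes, and in 11.6% of all windows. The letters include a CpG, and the members' windows held a median of 13 CpG sites, against 7 over all windows. The part of CpG content in the higher share was not tested.

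*Meg3* read 10.95 in SAMR1 and 10.69 in both the SAMP8 control and STEE-fed SAMP8 at its brightest probe set. All 11 of its probe sets were lower in the SAMP8 control than in SAMR1, by differences from -0.34 to -0.12. With STEE they lay between 0.00 and 0.10, so the 11 probe sets of *Meg3* stayed near their SAMP8 control level. *Dlk1* read 5.29, 4.89 and 4.84 at its brighter probe set and 4.67, 3.86 and 3.85 at the other. Both were lower in SAMP8, by log2 differences of -0.40 and -0.81, and differed by at most 0.05 with STEE.

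*Rian* combined the lowest strain difference and the highest STEE difference of the 36 genes at the brightest probe set. It read 9.71 in SAMR1, 9.16 in the SAMP8 control and 9.49 in STEE-fed SAMP8, which gives -0.55 for the strain and 0.33 for STEE. Both differences use the same SAMP8 control mean and are not independent. The 4 probe sets of *Rian* were all lower in the SAMP8 control (-0.55 to -0.10) but divided with STEE, at 0.33, 0.19, -0.18 and -0.25. *Mirg* was level between the strains, with 6.49 in SAMR1 and 6.52 in the SAMP8 control, and read 6.26 in STEE-fed SAMP8. This STEE difference of -0.26 was not repeated by its second probe set, at -0.04. Of the 10 measured genes next to the domain, also added later, 0 passed 0.25 and the strain differences lay between -0.16 and 0.12.

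**Figure D3:**
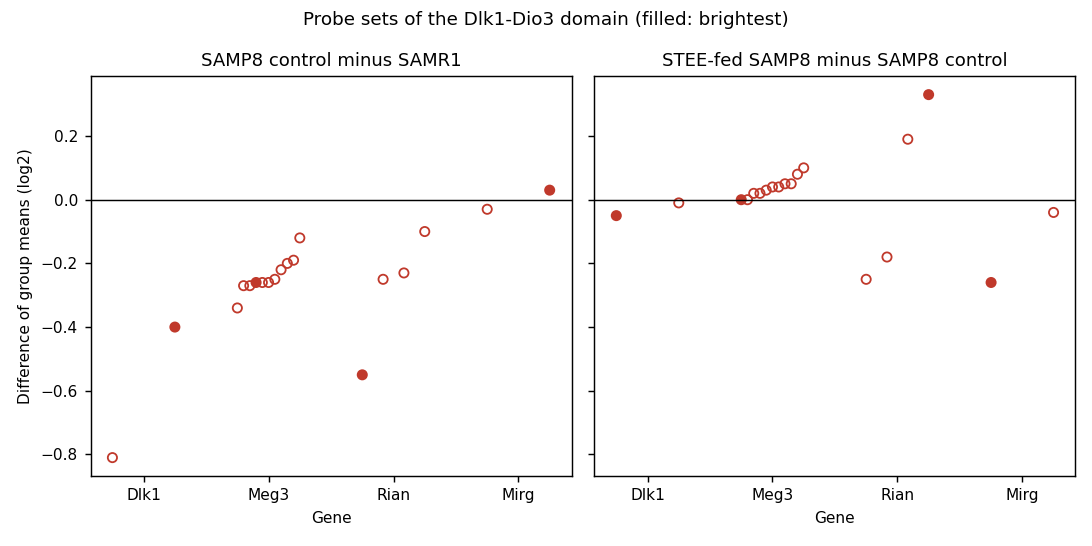
Log2 differences of group means (vertical axis) for every probe set of *Dlk1*, *Meg3*, *Rian* and *Mirg* (horizontal axis), with SAMP8 control minus SAMR1 on the left and STEE-fed SAMP8 minus SAMP8 control on the right; filled points are the brightest probe set of a gene and points are spread sideways for visibility. All 11 *Meg3* points lie from -0.34 to -0.12 on the left and from 0.00 to 0.10 on the right, and the 4 *Rian* points fall on both sides of 0 on the right.

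The *Snrpn*-*Ube3a* domain, the mouse counterpart of the Prader-Willi and Angelman region, was largely level. *Snrpn*, which encodes a spliceosomal protein of neurons, read 10.30 in SAMR1, 10.44 in the SAMP8 control and 10.41 in STEE-fed SAMP8. Its 7 probe sets differed by -0.08 to 0.30 between strains, 5 of them above 0; all but 1 are also assigned to *Snurf*, which shares its transcript. *Ndn* (necdin), a growth suppressor of postmitotic neurons, read 10.36, 10.25 and 10.17. Its 8 probe sets were all below 0 in both comparisons, from -0.14 to -0.01 between strains and from -0.18 to -0.06 with STEE, and none reached 0.25. *Magel2*, a relative of *Ndn* that acts in hypothalamic neurons, was the single listed gene of the domain past 0.25, with 4.24, 3.96 and 3.94.

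*Ube3a*, the ubiquitin ligase expressed from the maternal copy in neurons, read 8.94, 8.91 and 9.00. Of its 6 probe sets 5 were below 0 between strains, the lowest at -0.39. *Mkrn3*, which holds back puberty, and *Peg12* were dim, with 2.74, 2.82 and 2.71 and with 2.33, 2.44 and 2.41. Noncoding transcripts between these genes were looked at after the values were seen, and there the probe sets of 1 gene again went apart. *Ipw* read 5.25, 3.49 and 3.42 at 1440557_PM_at, a strain difference of -1.76 (3.39-fold), and 5.36, 5.56 and 5.86 at its brightest probe set. *A330076H08Rik* differed by 0.64 at one probe set and -0.19 at the other. None of the 10 genes outside the domain passed 0.25, with a range from -0.12 to 0.20.

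Among the imprinted regulators of growth, the lower values in SAMP8 were those of *Igf2* and *Cdkn1c*. *Igf2*, an insulin-like growth factor usually listed as paternally expressed, comes in the adult brain mostly from choroid plexus and meninges. It read 6.73 in SAMR1, 6.26 in the SAMP8 control and 6.45 in STEE-fed SAMP8. The strain difference was -0.47 and that with STEE was 0.19; its dim second probe set gave -0.04 and -0.14. *H19*, the noncoding RNA that shares enhancers with *Igf2*, stayed at the dim end with 2.97, 3.01 and 2.97. *Igf2r*, the receptor that removes IGF2, read 7.17, 7.11 and 7.20, and *Airn*, the noncoding RNA that silences it, 3.67, 3.75 and 3.66.

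*Cdkn1c*, a maternally expressed inhibitor of cyclin-dependent kinases, read 4.75, 4.36 and 4.24. Its difference between STEE-fed SAMP8 and SAMR1 of -0.51 was the lowest of the 36 genes. *Kcnq1ot1*, the paternal noncoding RNA that silences the *Cdkn1c* domain, read 7.21 in SAMR1 and 7.05 in both SAMP8 groups. All 5 of its probe sets were below 0 between strains (-0.34 to -0.06), and 1 of them, 1441588_PM_at, differed by -0.41 with STEE. The other genes of this domain did not pass 0.25. *Phlda2*, a brake on placental growth, read 3.21, 3.13 and 3.33; *Ascl2*, a basic helix-loop-helix factor, 3.17, 3.22 and 3.18. The transporter gene *Slc22a18* read 4.97, 4.91 and 4.89.

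*Grb10*, an adaptor that dampens insulin receptor signaling and is paternally expressed in neurons, read 7.47, 7.31 and 7.26. *Plagl1*, a zinc-finger factor of an imprinted growth network, read 8.81, 8.90 and 8.91. Neither gene passed 0.25.

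*Mest*, a paternally expressed gene with a hydrolase fold, was the single member that was higher in SAMP8. It read 5.76 in SAMR1, 6.18 in the SAMP8 control and 6.17 with STEE, and its only probe set gave a strain difference of 0.42. *Nnat* (neuronatin), a small proteolipid of the endoplasmic reticulum, went the other way with 6.99, 6.74 and 6.73. *Blcap*, in whose intron *Nnat* lies, read 8.25, 8.09 and 8.05. The strain difference of *Nnat* was exactly at the threshold, at -0.25, and that of *Blcap* was -0.16.

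The remaining genes were within 0.25 in each comparison at their brightest probe set. *Gnas*, the stimulatory G protein alpha subunit, was level at 11.23, 11.23 and 11.21, while 2 of its dim probe sets differed by -0.34 and -0.47 between strains. In the *Peg10*-*Sgce* domain, *Sgce* (epsilon-sarcoglycan) read 5.93, 6.09 and 6.07, the retrotransposon-derived *Peg10* 2.62, 2.54 and 2.59, and *Asb4* 2.89, 2.87 and 2.67. *Nap1l5*, related to nucleosome assembly proteins, read 10.34, 10.24 and 10.26. *Impact*, a regulator of the translation kinase GCN2, read 9.97, 9.96 and 9.93, and the splicing-factor relative *Zrsr1* read 7.65, 7.71 and 7.66. These 3 genes differed by at most 0.10 between any of the groups. *Inpp5f*, a phosphoinositide phosphatase, read 8.63, 8.65 and 8.56. *Trappc9*, a trafficking subunit, read 6.27, 6.12 and 6.05, and its 3 probe sets were all below 0 between strains.

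**Figure D4:**
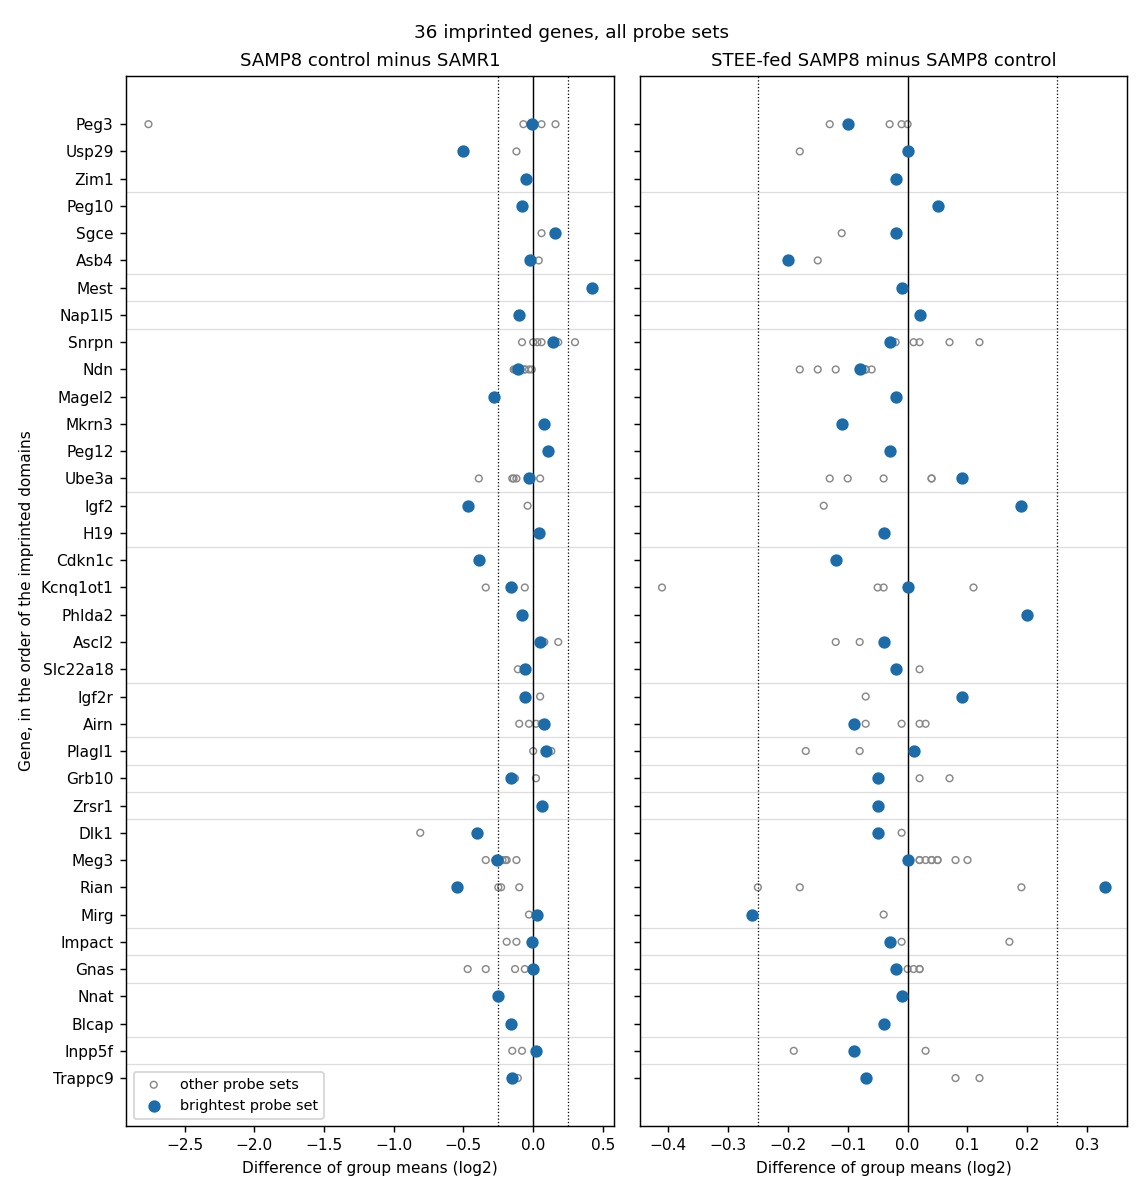
Log2 differences of group means (horizontal axes, with a wider scale on the left) for each of the 36 imprinted genes (rows, ordered by domain), with filled points for the brightest probe set, open points for the others and dotted lines at 0.25 in either direction. On the left 8 filled points are at or below -0.25 and 1 is above 0.25, with the *Peg3* probe set at -2.76 far from the rest, and on the right 1 filled point lies past the line on each side.

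Few of the members passed 0.25 with STEE. In STEE-fed SAMP8 compared with the SAMP8 control, 1 gene was higher (*Rian*, 2.78% of the members against 1.40% of all genes) and 1 was lower (*Mirg*, 2.78% against 1.22%). Most genes lay a little below 0, with 25 below, 8 above and 3 at 0, and a median of -0.025 against 0.0 for all genes. In STEE-fed SAMP8 compared with SAMR1, 7 genes were lower (19.4%, against 3.53% of all genes) and *Mest* was higher (2.78%, against 5.35%). The 7 were the genes lower in the SAMP8 control except *Rian*, which stood at -0.22. The 3 comparisons share their groups and are not independent of one another.

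Probe sets of 1 gene can serve as a check on one another, though they were read on the same arrays. Of the 23 imprinted genes with several probe sets, 10 had every probe set below 0 in the SAMP8 control compared with SAMR1 (43.5%) and 2 had every one above (8.7%). Over 10574 genes with several probe sets these shares were 20.4% and 21.4%. With STEE, 6 of the 23 had all probe sets below 0 (26.1%) and 0 had all above, against 18.3% and 19.9% of the 10574 genes. By parental origin, 5 of 19 genes usually read from the paternal copy, *Igf2* among them, were lower between strains and 1 was higher. Which copy was read in this tissue was not measured. Of 10 maternally read genes, 3 were lower, *Cdkn1c*, *Meg3* and *Rian*, and *Meg3* and *Rian* share a domain. Over all genes, 3.84% were lower and 4.25% were higher. The 7 genes whose imprint depends on tissue or transcript had none past 0.25. Of the 24 genes with a mean signal of 5 or more, 6 were lower, against 5.5% of all genes that bright.

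Outside the 36 genes, 42 of 45 further imprinted genes were measured. In the SAMP8 control compared with SAMR1, 2 of the 42 were higher and 4 were lower, against 4.25% and 3.84% of all genes. The lowest was *Ddc*, the decarboxylase that makes dopamine and serotonin and a neighbor of *Grb10*, with 5.61, 4.55 and 4.49 (-1.06). *Dhcr7* and *Dcn* differed by -0.39 and -0.36, and *Gatm*, named after its value was seen, by -0.25, while *Commd1* (0.45, at a probe set shared with *B3gnt2*) and *Cobl* (0.32) were higher. With STEE only *Th*, the rate-limiting enzyme of dopamine synthesis, passed 0.25, with 3.92, 3.81 and 3.23 (-0.58), dim in all groups. That was 1 of 42 genes lower, against 1.22% of all genes. Of 20 genes that set, read or protect imprints, such as DNA methyltransferases, 0 passed 0.25 in any of the 3 comparisons. Their strain differences lay between -0.19 and 0.19.

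Markers of the tissue itself and of its neighbors also differed between the strains. All 8 markers of cortical neurons were bright, at 6.70 or more in SAMR1, and their strain differences ran from -0.25 to 0.27. Of 10 hypothalamus markers 4 were lower in the SAMP8 control and 0 were higher, and their summed linear signal was 396 in SAMR1, 270 in the SAMP8 control and 257 in STEE-fed SAMP8. *Pmch* read 5.79, 3.31 and 3.31, and *Avp* 5.66, 3.43 and 3.54. Other hypothalamus markers did not pass 0.25 between strains. *Hap1*, bright at 7.03 in SAMR1, differed by -0.13. *Hcrt*, *Agrp* and *Trh* differed by -0.10, -0.09 and 0.06, and the regional factors *Sim1* and *Nkx2-1* by -0.05 and -0.03. Apart from *Hap1*, these markers were dim, under 5, where differences are compressed. Thalamus markers were lower in 4 of 6 (sums of 571, 448 and 417), and striatum markers were higher in 8 of 8 (1852, 2882 and 2934). With STEE, 1 of 6 genes of the thalamus list was lower, *Calb2* with 6.94, 6.83 and 6.10 (-0.73), and 0 were higher. The rest of that list differed by -0.18 to 0.13 with STEE, and *Calb2* itself by only -0.11 between strains. The strain differences of these markers stood beside the lower values of *Magel2*, *Dlk1*, *Nnat* and *Usp29*, and their part in them was not tested. In whole tissue, fewer cells of a type and less RNA per cell cannot be told apart.

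Choroid plexus markers were lower in 4 of 8, with summed signals of 2212, 1207 and 1602 in SAMR1, SAMP8 control and STEE-fed SAMP8. Their most abundant gene, *Ttr*, read 10.20, 8.24 and 9.33, that is, low in the SAMP8 control and in between with STEE. The other markers lower between strains, *Sostdc1* (4.30, 3.81 and 3.79), *Kcne2* (2.92, 2.62 and 2.57) and *Kcnj13* (3.68, 3.25 and 3.47), were not all higher with STEE, and the STEE median of the 8 markers was 0.005, with 4 above 0 and 3 below. *Igf2* had the same order of groups as *Ttr*, and the part of choroid plexus in it was not tested. Meningeal markers did not pass 0.25 in any of 8 genes between strains (sums of 352, 331 and 327). Oligodendrocyte markers were lower in 4 of 6 (10172, 8925 and 8653). Astrocyte and microglia markers had 0 of 6 each past 0.25 between strains, blood markers 0 of 7, and endothelial markers 1 higher and 1 lower of 5.

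**Figure D5:**
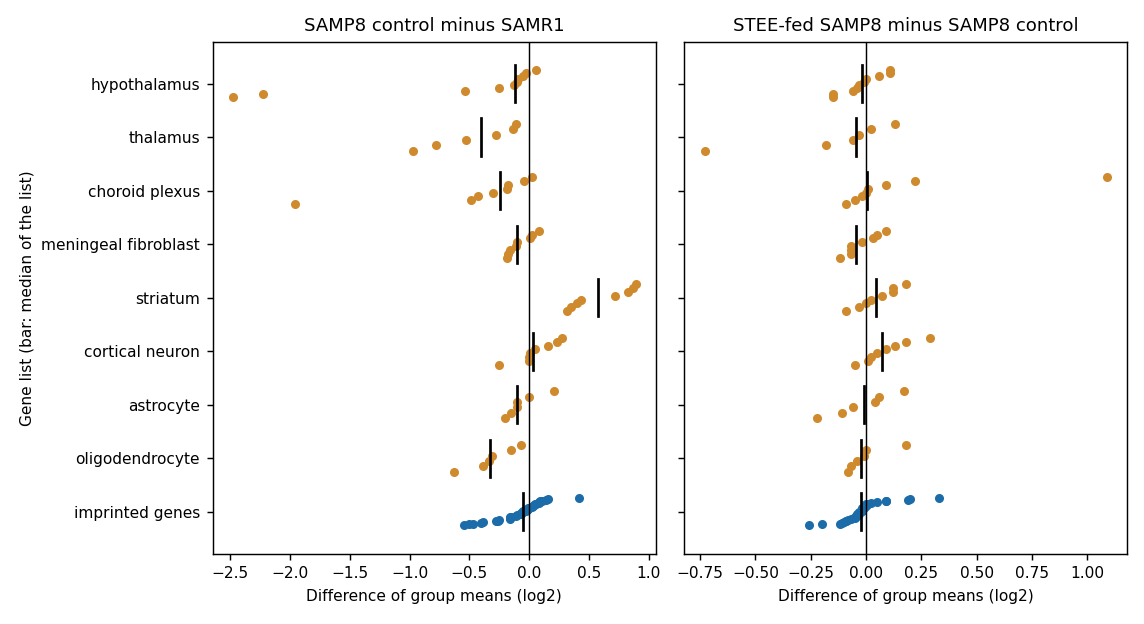
Log2 differences of group means (horizontal axes) for the genes of 8 marker lists and for the 36 imprinted genes (rows), each point 1 gene at its brightest probe set and each black bar the median of its list. On the left, the 8 striatum markers lie between 0.32 and 0.89 and all 6 thalamus markers lie below 0. On the right, the choroid plexus gene *Ttr* stands at 1.09, and *Calb2* at -0.73 lies apart from the rest of the thalamus list.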

How the data were processed

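Cortical RNA of 6 mice, 2 in each of 3 groups, was hybridized to Affymetrix expression arrays for the mouse (PM array strips). Per the submitters' processing notes and the methods, the authors ran RMA in Affymetrix Expression Console on the probe intensities and used Transcriptome Analysis Console for the comparisons. The deposited files are 2 comparison tables of 45077 probe sets with group means on the log2 scale, rounded to 2 decimals, so that a difference can be off by 0.01. The tables also hold their fold changes and p-values, which are the authors' own comparisons and were not used. The SAMP8 control columns of both tables were identical (largest gap 0.0), and the median log2 signal was 4.16, 4.15 and 4.15 over the groups. RMA pulls arrays to a common distribution, so that values are relative to the whole array, and it gives no zero; very dim probe sets compress differences.

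Group means were subtracted for each probe set in Python 3.11.15 with numpy 2.4.6, pandas 2.3.3 and matplotlib 3.10.9. Symbols were split at each separator; 5694 probe sets had no symbol and 1253 had several. The brightest probe set over the 3 groups stood for a gene, except that every *Peg3* probe set was shown. Probe sets marked _x_ or _s_ can bind related transcripts. The counting code was checked on artificial tables with known differences, and the counts themselves were not tested. No sample was left out. All members were named, and of the other imprinted genes and imprint regulators the 5 largest per comparison past 0.25, with *Gatm* added; members and gene lists were chosen with earlier results of these data known. Promoter windows (31 members had at least 1) and gene order came from RefSeq, GRCm38.p6; the deposited tables were not placed on a genome build here. The alternatives were thresholds of 0.15 and 0.5, the mean over all probe sets, leaving out _x_ and _s_ probe sets, a signal minimum of 5, probe sets with 1 symbol, and centring on group medians.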

Additional observations from a re-analysis of the deposited data

How the results depend on the processing

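All 15 medians of the imprinted genes moved by less than 0.1 under the alternatives run, 30 of 42 counts stayed within 1.5 times, and 0 results reversed. The 15 *Peg3* values were rerun only with centring on group medians. With group medians of 4.16, 4.15 and 4.15, these values could hardly move. They do not show how *Peg3* depends on the choice of probe set. Centring on group medians took the strain difference of the brightest *Peg3* probe set from -0.01 to 0 and that of *Nnat* to -0.24, which left 7 genes lower in the SAMP8 control. At a threshold of 0.15, the counts were 2 higher and 12 lower in the SAMP8 control compared with SAMR1 (11.0% of all genes in each direction), 3 higher and 2 lower with STEE (6.56% and 6.37% of all genes), and 15 lower in STEE-fed SAMP8 compared with SAMR1, where 11.2% of all genes were lower. At 0.5 they were 0 higher and 2 lower in the SAMP8 control (1.03% and 0.55% of all genes), 0 and 0 with STEE (0.093% and 0.151%), and 0 higher and 2 lower in STEE-fed SAMP8 compared with SAMR1 (1.09% and 0.577%). With the mean over all probe sets the STEE counts were 0 and 0 (0.892% and 0.795% of all genes), *Rian* standing at 0.02 and *Mirg* at -0.15. In the same setting the strain difference was -0.31 for *Usp29*, -0.26 for *Igf2*, -0.60 for *Dlk1* and -0.28 for *Rian*. The number of genes lower between strains was again 8 (22.2%, against 2.68% of all genes), but they were not the same genes. *Meg3* left the count at -0.24, and *Peg3* entered it through its probe set at -2.76. Without _x_ and _s_ probe sets the strain difference of *Dlk1* was -0.81. The mean changes these values because probe sets of 1 gene differ.

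No array could be left out and no paired analysis was possible because only group means were used. Differences between mice are therefore unknown, and a single mouse may carry any value given here. Of the 36 genes, 12 had a mean signal under 5, where RMA compresses differences.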
